A study of Mus musculus with 20 samples.

Results

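Beta-catenin (Ctnnb1) and 9 genes that it is known to switch on in the liver were followed by mRNA sequencing in mouse liver tumors and in liver. The 10 members were found by their symbols in both count tables, out of the 50559 genes that each table lists, and all 10 were among the 14333 genes tested. They fall into 4 roles. Ctnnb1 is the effector, Axin2, Nkd1, Rnf43 and Znrf3 are negative feedback genes, Lgr5 and Tbx3 are a receptor and a transcription factor, and Glul, Rhbg and Slc1a2 are an enzyme and transporters of hepatocytes around the central vein.

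The study asked whether Aldafermin, an engineered analog of the hormone FGF19 with a changed N-terminus, shares the ability of FGF19 to cooperate with MYC in liver cancer. The labels give 4 groups of 5 libraries, all from C57Bl6J;WT mice, which the study's methods describe as young adult females. Aldafermin + MYC, FGF19 + MYC and sgTrp53 + MYC tumors arose after plasmids were pushed into hepatocytes through the tail vein (hydrodynamic gene transfer), with human MYC driven by the EF1a promoter, human FGF19 or its analog, or a CRISPR plasmid with a guide against Trp53, and with the Sleeping Beauty transposase that inserts the transgenes. The fourth group is liver, which the labels call non treated and the methods describe as given a plasmid for a red fluorescent protein. Each tumor library came from 1 snap-frozen tumor of a separate mouse, so that the plasmids reached only a part of the hepatocytes of an otherwise wild-type animal. The treatment field of the sgTrp53 + MYC samples reads none, and their group was taken from their titles.

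In the canonical Wnt pathway, a Wnt ligand that binds a Frizzled receptor and an Lrp co-receptor stops the destruction of beta-catenin, which then enters the nucleus and acts with TCF/LEF factors on its targets. Several targets restrain the pathway again: Axin2 rebuilds the destruction complex, Nkd1 binds Dishevelled, and Rnf43 and Znrf3 are membrane ubiquitin ligases that remove Frizzled receptors unless an R-spondin bound to an Lgr receptor clears them from the cell surface. In the liver, endothelial cells of the central vein supply Wnt ligands and Rspo3, and the hepatocytes around the vein answer with glutamine synthetase (Glul) and other pericentral genes. Beta-catenin also has a place at the cell membrane, where it ties cadherins to the actin cytoskeleton.

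TCF/LEF factors bind short motifs with a shared core, and the proximal promoters of the members were therefore searched on both strands for CTTTGAA or CTTTGAT or CTTTGTA or CTTTGTT, of which no more than 1 can match at a given position and strand. The RefSeq promoter table (build GRCm38.p6, 250 bases before to 50 bases after the start of a transcript) held 8 promoters for 6 of the 10 members, namely Axin2, Ctnnb1, Glul, Nkd1, Rnf43 and Slc1a2. Lgr5, Tbx3, Rhbg and Znrf3 were not among its entries. A match was found in 1 of the 8 promoters, against 16.9% of the 32544 promoters of the same length in the table. The match is in Slc1a2, on the opposite strand, and starts 207 bases before the transcript start, and the stretch of 29 bases around it (chr2:102706220-102706248, plus strand) is printed because it holds the motif, in capitals:
Slc1a2: agaagagggacATCAAAGgccccaaatgg
The form CTTTGAT alone, which is the match in Slc1a2, was present in 3.73% of all promoters of the table.

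The libraries held 18004977 to 66354724 reads on genes, with all 5 sgTrp53 + MYC libraries (54042455 or more) above the 15 others (44427184 or fewer). The sgTrp53 + MYC libraries also stand alone in a table of their own, so that table, depth and group cannot be told apart in any comparison with them. In these libraries 11.1% to 14.6% of reads fell in the line for reads that match more than 1 gene, against 3.03% to 6.30% in the others, and whether this bears on the members was not tested. Levels are given as CPM, the reads of a gene scaled to library size with TMM factors. Trp53, the gene targeted in the sgTrp53 + MYC tumors, was at 18.7 to 79.9 CPM there, at 90.8 to 176 CPM in the other tumors and at 28.8 to 36.4 CPM in liver, and a transcript with an edited exon would still be counted. The 9 hepatocyte markers (Alb, Apoa1, Ttr and others) were found in every library and summed to 216200 to 288500 CPM in liver against 5051 to 42000 CPM in tumors. All 9 of them were lower than in liver in each tumor group. In bulk tissue, fewer cells of a type and less RNA per cell cannot be told apart, and this holds for every level below.

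Against liver, most of the target genes fell, Znrf3 did not, and beta-catenin itself did not pass the test. In each of the 3 tumor groups, 8 of the 10 members were lower than in liver, namely Axin2, Nkd1, Rnf43, Lgr5, Tbx3, Glul, Rhbg and Slc1a2. Over all genes tested, 31.9% were lower and 38.4% higher in Aldafermin + MYC tumors, 32.9% lower and 36.9% higher in FGF19 + MYC tumors, and 33.0% lower and 36.9% higher in sgTrp53 + MYC tumors. No member was higher in Aldafermin + MYC or sgTrp53 + MYC tumors, and 1 member, Znrf3, was higher in FGF19 + MYC tumors. The median log2 fold change of the 10 members was -4.31, -3.15 and -3.91 in the 3 groups in that order, beside 0.13, 0.06 and 0.07 over all genes tested. A gene was called where the adjusted p of edgeR's quasi-likelihood test, with Benjamini-Hochberg adjustment over all 14333 genes, was under 0.05. The 3 comparisons share the same 5 livers and are not independent. Axin2 and Lgr5 passed the filter on low counts only through the livers, where they are high, so that they had to differ and their values below are a description. Of the 8 members that passed without the livers, 6 were lower in each tumor group, and their median log2 fold change was -3.99, -2.46 and -3.49.

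**Figure D1:**
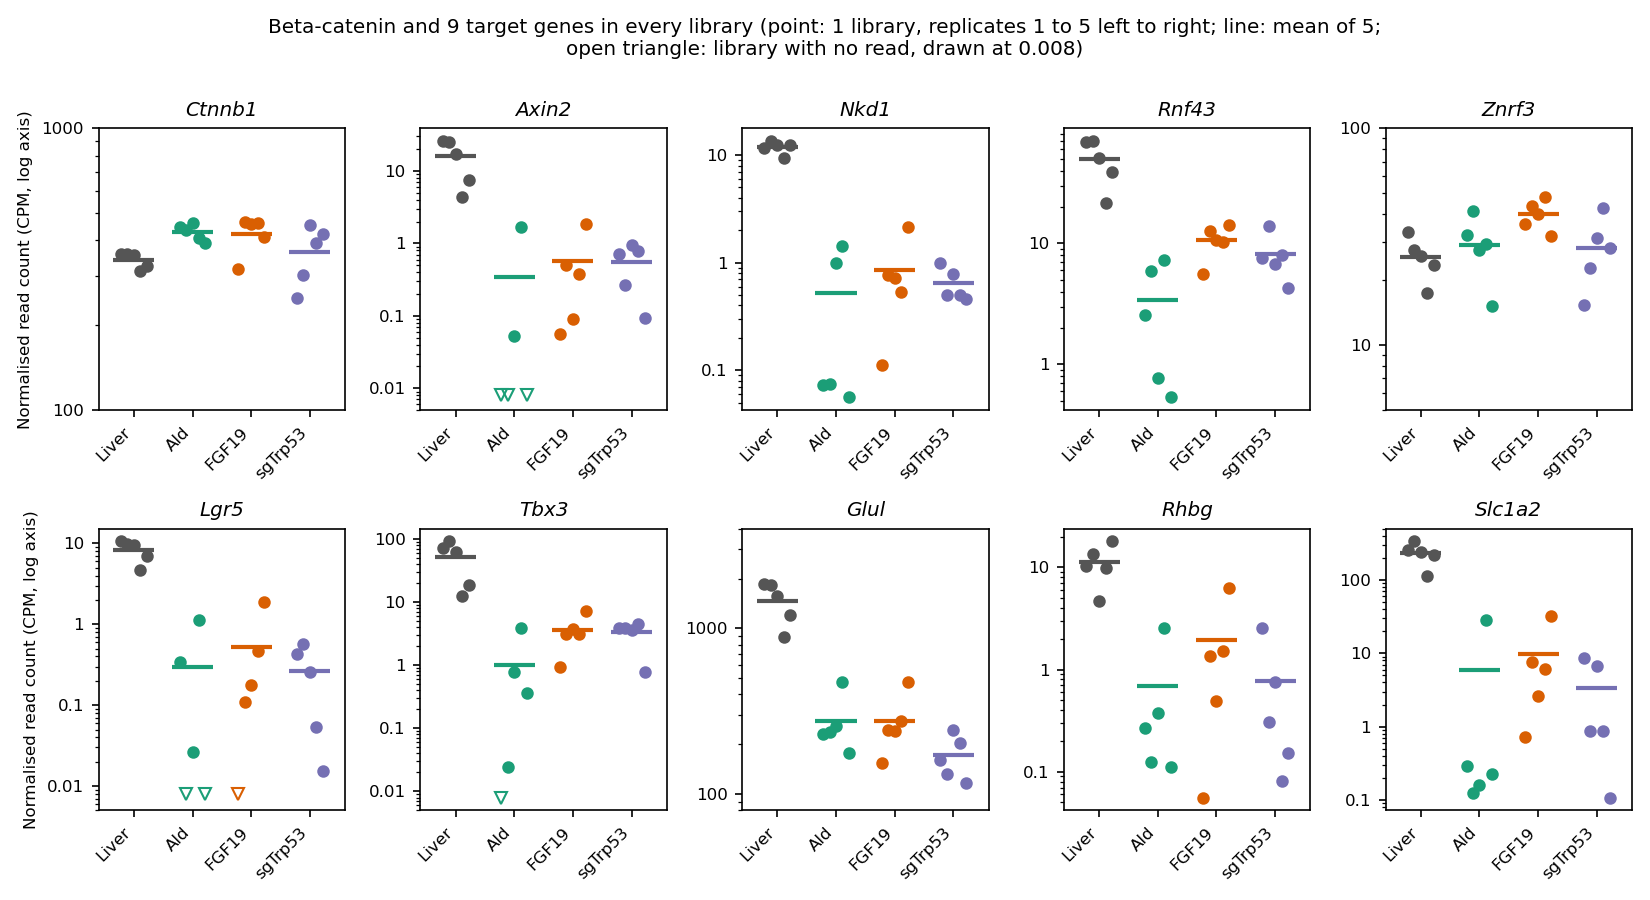
Normalised read count (CPM, log axis) of each of the 10 members in the 20 libraries, with 1 point per library, the mean of 5 as a line and libraries without a read as open triangles. For 7 genes the 15 tumor points lie below all 5 liver points, for Rhbg 14 of 15 do, and for Ctnnb1 and Znrf3 the groups lie close together. Among the 7 are Axin2 and Lgr5, which were tested only because of their liver levels. The share of all genes that separate in this way was not counted.

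**Figure D2:**
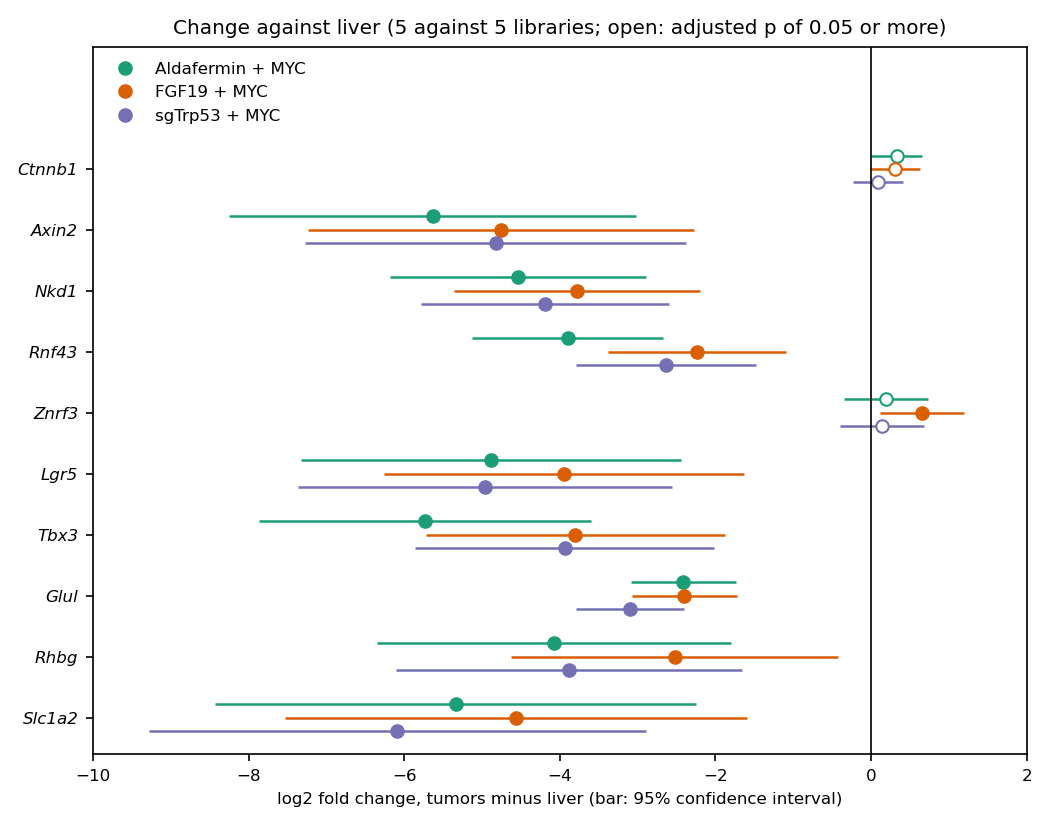
Log2 fold change of each member, tumors minus liver, with 95% confidence intervals from the quasi-likelihood fit. Filled points passed an adjusted p of 0.05, and 8 genes are filled to the left of 0 in all 3 tumor groups, among them Axin2 and Lgr5, which were tested only because of their liver levels.

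Ctnnb1 (ENSMUSG00000006932.19, GRCm39 chr9:120757422-120789579, plus strand) encodes beta-catenin. Its level was 357, 357, 356, 313 and 325 CPM in livers 1 to 5, and 446, 436, 461, 409 and 393 CPM in Aldafermin + MYC tumors 1 to 5. FGF19 + MYC tumors had 316, 467, 456, 462 and 411 CPM, and sgTrp53 + MYC tumors 249, 301, 454, 391 and 423 CPM. All 5 Aldafermin + MYC tumors and 4 of 5 FGF19 + MYC tumors were above every liver, whereas the sgTrp53 + MYC tumors lay on both sides of the livers. The share of all genes that separate from liver like this was not counted, here or for the genes below. The log2 fold change against liver was 0.33 ± 0.16 (SE, n = 5 against 5) in Aldafermin + MYC tumors, with an edgeR adjusted p of 0.0660. In FGF19 + MYC tumors it was 0.31 ± 0.16 with an adjusted p of 0.0862, and in sgTrp53 + MYC tumors 0.09 ± 0.16 with an adjusted p of 0.618. The upper 95% bounds of these log2 fold changes were 0.65, 0.63 and 0.42. The call on Ctnnb1 depends on the scaling: with library totals and no TMM factor its log2 fold change was 1.18, 1.16 and 0.99 in the 3 groups, all called, but the median of all genes then moved to 0.98, 0.91 and 0.95. It was also called higher in Aldafermin + MYC and FGF19 + MYC tumors without a filter on low counts, and when Aldafermin + MYC replicate 5, FGF19 + MYC replicate 1 or sgTrp53 + MYC replicate 1 was left out.

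Axin2 (chr11:108811169-108841609, plus strand), the scaffold of the destruction complex and a broad readout of beta-catenin activity, was at or near 0 in several tumors. Livers 1 to 5 had 26.0, 25.2, 16.9, 4.44 and 7.45 CPM. Aldafermin + MYC tumors 1, 2 and 5 held no Axin2 read, which allows at most 0.0729, 0.0744 and 0.0842 CPM (3 reads), tumor 3 held 2 reads (0.0534 CPM) and tumor 4 held 44 reads (1.69 CPM). FGF19 + MYC tumors had 0.0558, 0.510, 0.0898, 0.382 and 1.83 CPM, and sgTrp53 + MYC tumors 0.708, 0.266, 0.946, 0.790 and 0.0921 CPM. Every tumor was below every liver, livers 4 and 5 were well below livers 1 to 3, and Aldafermin + MYC tumor 4 and FGF19 + MYC tumor 5 were the highest tumors. The log2 fold change of Axin2 against liver was -5.63 ± 1.25 in Aldafermin + MYC tumors (SE, n = 5 against 5), -4.76 ± 1.19 in FGF19 + MYC tumors and -4.82 ± 1.17 in sgTrp53 + MYC tumors.

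Nkd1 (chr8:89247890-89324577, plus strand), an inhibitor that acts on Dishevelled, had the narrowest liver range of the 8 genes that fell. It was at 9.42 to 13.5 CPM in the 5 livers, at 0.0561 to 1.42 CPM in Aldafermin + MYC tumors, at 0.112 to 2.14 CPM in FGF19 + MYC tumors and at 0.460 to 0.988 CPM in sgTrp53 + MYC tumors. No tumor reached the lowest liver. The log2 fold changes against liver were -4.54 ± 0.79, -3.77 ± 0.76 and -4.19 ± 0.76 (SE), with edgeR adjusted p of 4.25e-05, 0.000199 and 6.99e-05 in the 3 groups.

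Rnf43 (chr11:87553548-87626377, plus strand) and Znrf3 (chr11:5226324-5394939, minus strand) encode the paired ubiquitin ligases that remove Frizzled receptors, yet they went apart. Rnf43 was at 69.4, 70.4, 51.2, 21.6 and 39.1 CPM in livers 1 to 5, and at 2.55, 5.88, 0.774, 7.23 and 0.533 CPM in Aldafermin + MYC tumors 1 to 5. FGF19 + MYC tumors had 5.64, 12.6, 10.6, 10.3 and 14.1 CPM and sgTrp53 + MYC tumors 7.56, 13.9, 6.82, 8.07 and 4.25 CPM. All 15 tumors were below every liver, and Aldafermin + MYC tumors 3 and 5 were the lowest of all. Its log2 fold change was -3.90 ± 0.59 in Aldafermin + MYC tumors (SE, edgeR adjusted p = 8.59e-06), -2.24 ± 0.55 in FGF19 + MYC tumors (adjusted p = 0.00123) and -2.63 ± 0.55 in sgTrp53 + MYC tumors (adjusted p = 0.000301).

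Znrf3 was at 33.1, 27.5, 25.7, 17.3 and 23.5 CPM in livers 1 to 5 and at 32.1, 41.5, 27.3, 29.1 and 15.04 CPM in Aldafermin + MYC tumors. FGF19 + MYC tumors had 36.3, 43.8, 40.3, 48.2 and 31.9 CPM, and sgTrp53 + MYC tumors 15.2, 22.8, 31.2, 43.0 and 28.1 CPM. In 4 of 5 FGF19 + MYC tumors it was above every liver, and in the other tumor groups the ranges covered those of the livers. The log2 fold change was 0.66 ± 0.26 in FGF19 + MYC tumors (SE, edgeR adjusted p = 0.0290), against 0.19 ± 0.26 (adjusted p = 0.519) in Aldafermin + MYC and 0.14 ± 0.26 (adjusted p = 0.634) in sgTrp53 + MYC tumors. The call in FGF19 + MYC tumors was lost when FGF19 + MYC replicate 2 or 4 or liver replicate 4 or 5 was left out, with log2 fold changes down to 0.55. The difference between Aldafermin + MYC and FGF19 + MYC tumors in Znrf3 did not pass the test (log2 fold change -0.47 ± 0.26, adjusted p = 0.771).

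Because Rnf43 and Znrf3 act on the same receptors, the ratio of their reads was taken within each library, where it does not depend on scaling. This measure was chosen after the values were seen. The log2 ratio of Rnf43 to Znrf3 reads was 1.07, 1.35, 1.00, 0.32 and 0.74 in livers 1 to 5, so that all livers had more Rnf43 reads. It was below 0 in all 15 tumors, at -5.14 to -2.01 in Aldafermin + MYC, -2.69 to -1.17 in FGF19 + MYC and -2.73 to -0.71 in sgTrp53 + MYC tumors. The means were 0.90 ± 0.39 (SD, n = 5) in liver, -3.69 ± 1.32 in Aldafermin + MYC, -1.96 ± 0.56 in FGF19 + MYC and -1.81 ± 0.89 in sgTrp53 + MYC tumors. The mean difference from liver was -4.58, -2.86 and -2.71 in the 3 groups in that order, and Aldafermin + MYC minus FGF19 + MYC gave -1.73. These differences are a description, with no test, since the pair of genes was picked for going apart.

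**Figure D3:**
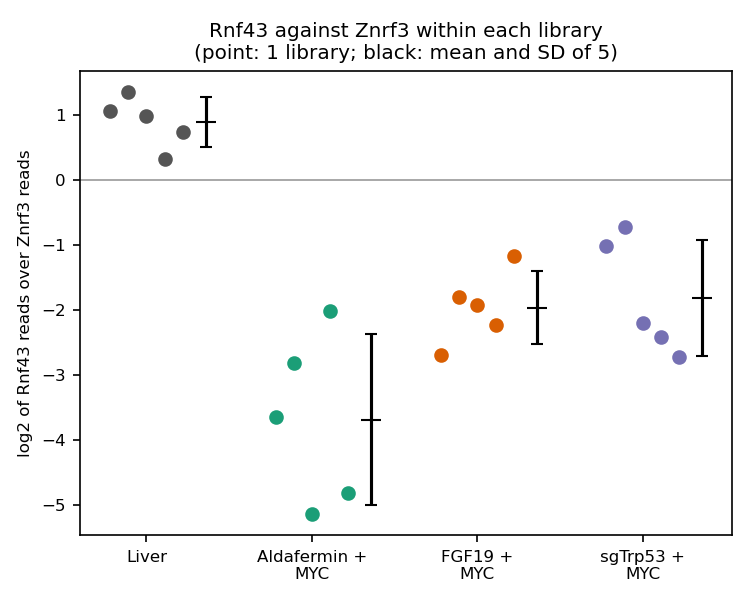
Log2 of Rnf43 reads over Znrf3 reads in each library, with the mean and SD of 5 in black and a line at equal reads. The 5 livers lie above 0, from 0.32 to 1.35, and the 15 tumors below 0, down to -5.14 in an Aldafermin + MYC tumor.

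Lgr5 (chr10:115286216-115423685, minus strand), the R-spondin receptor of pericentral hepatocytes, was at 10.6, 9.90, 9.45, 4.71 and 7.05 CPM in livers 1 to 5. Aldafermin + MYC tumors 1 to 5 held 14, 0, 1, 29 and 0 Lgr5 reads, FGF19 + MYC tumors 0, 3, 4, 16 and 53, and sgTrp53 + MYC tumors 26, 41, 22, 4 and 1. The highest tumor, FGF19 + MYC tumor 5, had 1.86 CPM and was below the lowest liver. The log2 fold change of Lgr5 was -4.89 ± 1.17 (SE), -3.95 ± 1.11 and -4.96 ± 1.15 in Aldafermin + MYC, FGF19 + MYC and sgTrp53 + MYC tumors.

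Tbx3 (chr5:119806298-119822797, plus strand), a T-box transcription factor induced by beta-catenin in liver, varied among the livers, at 71.4, 92.1, 61.7, 12.6 and 19.0 CPM in livers 1 to 5. Aldafermin + MYC tumors were at 0, 0.0248, 0.774, 3.88 and 0.365 CPM, FGF19 + MYC tumors at 0.949, 3.17, 3.77, 3.11 and 7.31 CPM, and sgTrp53 + MYC tumors at 3.90, 3.93, 3.66, 4.47 and 0.783 CPM. Tumors and livers did not overlap, and the 4 lowest tumors were Aldafermin + MYC tumors 1, 2, 3 and 5. The log2 fold changes of Tbx3 were -5.74 ± 1.02 (SE, edgeR adjusted p = 5.6e-05), -3.80 ± 0.92 (adjusted p = 0.00115) and -3.94 ± 0.92 (adjusted p = 0.000819) in the 3 tumor groups in the same order.

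Glul (chr1:153775690-153785469, plus strand) makes glutamine from ammonia and glutamate in the innermost pericentral hepatocytes and is the usual tissue marker of beta-catenin activity in liver cancer. Livers 1 to 5 had 1862, 1834, 1580, 892 and 1199 CPM. Aldafermin + MYC tumors had 233, 236, 259, 476 and 178 CPM, FGF19 + MYC tumors 154, 244, 242, 278 and 476 CPM, and sgTrp53 + MYC tumors 160, 132, 246, 204 and 117 CPM. All tumors were below all livers, but in each Aldafermin + MYC tumor Glul kept a larger share of its mean liver level (12.1% to 32.3%) than the other 7 genes that fell. In the other groups this held for 1 of 5 sgTrp53 + MYC tumors and for no FGF19 + MYC tumor, and the gene with the largest share was Rnf43 in 4 FGF19 + MYC and 3 sgTrp53 + MYC tumors and Rhbg in 1 tumor of each group. The log2 fold change was -2.41 ± 0.32 (SE, edgeR adjusted p = 1.98e-06), -2.40 ± 0.32 (adjusted p = 2.09e-06) and -3.10 ± 0.33 (adjusted p = 9.88e-08) in Aldafermin + MYC, FGF19 + MYC and sgTrp53 + MYC tumors.

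Slc1a2 (chr2:102488574-102621129, plus strand), the glutamate transporter that feeds glutamine synthesis and carries the motif printed above, fell to some of the lowest shares of liver. Livers 1 to 5 had 258, 335, 238, 113 and 217 CPM. Aldafermin + MYC tumors had 0.291, 0.124, 0.160, 28.5 and 0.224 CPM, FGF19 + MYC tumors 0.726, 7.57, 2.65, 6.02 and 31.8 CPM, and sgTrp53 + MYC tumors 8.50, 0.868, 6.72, 0.858 and 0.107 CPM. Within the Aldafermin + MYC group, tumor 4 had 12.2% of the liver mean and the other 4 had 0.0534% to 0.126%. The log2 fold changes against liver were -5.34 ± 1.48 (SE, edgeR adjusted p = 0.00338), -4.56 ± 1.42 (adjusted p = 0.00778) and -6.09 ± 1.53 (adjusted p = 0.00153).

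Rhbg (chr3:88150181-88162043, minus strand), an ammonium transporter of pericentral hepatocytes, was the only gene of the 8 with a tumor inside the liver range. Livers 1 to 5 had 10.3, 13.6, 4.68, 9.97 and 17.97 CPM, and FGF19 + MYC tumors 0.0558, 1.35, 0.494, 1.53 and 6.29 CPM, so that FGF19 + MYC tumor 5 was above liver 3. Aldafermin + MYC tumors ranged from 0.112 to 2.58 CPM and sgTrp53 + MYC tumors from 0.0817 to 2.54 CPM. Its log2 fold change was -4.08 ± 1.09 (SE, edgeR adjusted p = 0.00256), -2.53 ± 1.00 (adjusted p = 0.0316) and -3.88 ± 1.06 (adjusted p = 0.00309) in Aldafermin + MYC, FGF19 + MYC and sgTrp53 + MYC tumors. The call in FGF19 + MYC tumors was lost with library totals in place of TMM (log2 fold change -1.64) and when FGF19 + MYC replicate 1, 2, 3 or 4 or liver replicate 2 or 5 was left out (-2.45 to -2.22).

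Some members share sequence with other annotated genes, which bears on how reads were assigned. Rhbg shares 1190 bases of its 2008 exonic bases with Gm38392 on the same strand, for which the count tables hold no row. Ctnnb1 shares 765 exonic bases with Ulk4, and Tbx3 shares 1468 with Tbx3os1, both on the opposite strand, and these neighbours held at most 76 and 9 reads in any library.

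Per kilobase of annotated exon, which allows genes to be compared, Glul was the highest member in liver at 373 ± 106 CPM per kilobase (SD, n = 5), followed by Ctnnb1 at 41.8 ± 2.59, Slc1a2 at 16.6 ± 5.73 and Rnf43 at 7.66 ± 3.15. Below them came Tbx3 (6.24), Rhbg (5.63), Znrf3 (3.17), Axin2 (2.31), Nkd1 (1.44) and Lgr5 (0.813). From Slc1a2 to Nkd1 each gene's range over the livers overlapped that of the next, whereas Glul, Ctnnb1 and Slc1a2 were separate from each other and Lgr5 from Nkd1. In all 3 tumor groups the order per kilobase began with Glul and Ctnnb1, whose ranges overlapped there, and continued with Znrf3, which stood 7th in liver. In sgTrp53 + MYC tumors Ctnnb1 at 44.5 ± 10.5 CPM per kilobase stood beside Glul at 43.5 ± 13.4. Lgr5 was the lowest of the 10 in every group, with a tumor mean of 0.0258 to 0.0511 CPM per kilobase.

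No member passed the test across all genes when Aldafermin + MYC tumors were set against FGF19 + MYC tumors. The comparison called 0 of 10 members and 0% of all 14333 genes in either direction by edgeR's quasi-likelihood test, where 1048 genes had an unadjusted p under 0.05 (DESeq2 called 96 genes and no member, edgeR's likelihood ratio test 59 and no member). Among the members, 2 had an unadjusted p under 0.05. Rnf43 was lower in Aldafermin + MYC tumors by a log2 fold change of -1.66 (95% confidence interval -2.80 to -0.52, edgeR adjusted p = 0.403), with 3 of the 5 tumors below the lowest FGF19 + MYC tumor. Tbx3 had -1.94 (-3.82 to -0.05, adjusted p = 0.665). Glul had -0.01 (-0.65 to 0.63) and Ctnnb1 0.02 (-0.30 to 0.35). For Axin2 (-3.27 to 1.52), Lgr5 (-3.22 to 1.34), Slc1a2 (-3.41 to 1.86), Rhbg (-3.67 to 0.56) and Nkd1 (-2.28 to 0.76) the intervals were wider, so that these tumors do not show the groups to be alike. Single tumors set these values. Without Aldafermin + MYC replicate 4 the log2 fold change was -5.19 for Axin2 and -5.59 for Slc1a2, and without FGF19 + MYC replicate 5 it was 0.22 and 0.42.

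Pooled Aldafermin + MYC and FGF19 + MYC tumors were set against sgTrp53 + MYC tumors, as the study did, to ask what sets the hormone-driven tumors apart from tumors with MYC and a targeted Trp53. No member passed the edgeR quasi-likelihood test, where 11.6% of all genes tested were called higher and 12.1% called lower, and 1 member had an unadjusted p under 0.05. That member was Glul, with a log2 fold change of 0.69 ± 0.27 (SE, n = 10 against 5) and an adjusted p of 0.0732. DESeq2 called it (0.66, adjusted p = 0.0482), as did the edgeR test without FGF19 + MYC replicate 1 (0.77, adjusted p = 0.0397) or without sgTrp53 + MYC replicate 3 (0.86, adjusted p = 0.0483). Beside this, 4 of the 9 hepatocyte markers were higher in the pooled tumors and none was lower, and their part in the Glul difference was not tested. The other log2 fold changes ran from -0.83 for Tbx3 to 1.14 for Slc1a2, with 95% intervals of -2.33 to 0.66 and -1.24 to 3.51. Ctnnb1 had 0.23 (-0.06 to 0.51, adjusted p = 0.240).

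The result for Axin2 and Tbx3 in this comparison depended on 2 tumors. Axin2 had -0.37 ± 0.92 (SE, edgeR adjusted p = 0.805) with all libraries, -2.53 (adjusted p = 0.0315) without Aldafermin + MYC replicate 4, and -3.08 (adjusted p = 0.00652) without that tumor and FGF19 + MYC replicate 5 together. Tbx3 moved from -0.83 (adjusted p = 0.430) to -1.91 (adjusted p = 0.0362) without both. Leaving out both was chosen after the data were seen. FGF19 + MYC tumor 5 and Aldafermin + MYC tumor 4 ranked 1st and 2nd of the 15 tumors for Axin2 and 1st and 5th for Tbx3. Both belong to the pooled tumors, so leaving them out had to lower the pooled level, and the changed calls are a description. Axin2 was also tested only because of its liver levels, and in the other pooled tumors it had 14 reads or fewer.

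These 2 tumors stood apart across the members. FGF19 + MYC tumor 5 was the highest of the 15 tumors for 7 of the 8 genes that fell and Aldafermin + MYC tumor 4 for Glul, the eighth. Both were among the top 2 tumors for 6 of the 8, namely Axin2, Nkd1, Lgr5, Glul, Rhbg and Slc1a2. For Ctnnb1 they ranked 9th and 10th, and for Znrf3 8th and 10th, in the same order. The median of the 8 genes was 20.2% of the mean liver level in FGF19 + MYC tumor 5 and 12.8% in Aldafermin + MYC tumor 4, against 0.340% to 7.97% in the other 13 tumors. The same tumors had the highest hepatocyte marker levels. The sum of the 9 hepatocyte markers was 42000 and 32240 CPM there, against 5051 to 24190 CPM in the other 13 tumors, while the sum of 8 endothelial markers was 209 and 194 CPM, against 60.1 to 199 CPM. The part of these cells in the member levels was not tested. Among the livers, replicate 4 was the lowest for 7 of the 8 genes, Rhbg aside, and had the highest sums of hepatocyte (288500 CPM) and endothelial markers (406 CPM). Without both tumors, 8 members were still lower than in liver in each tumor group, among them Axin2 and Lgr5, which had to differ.

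**Figure D4:**
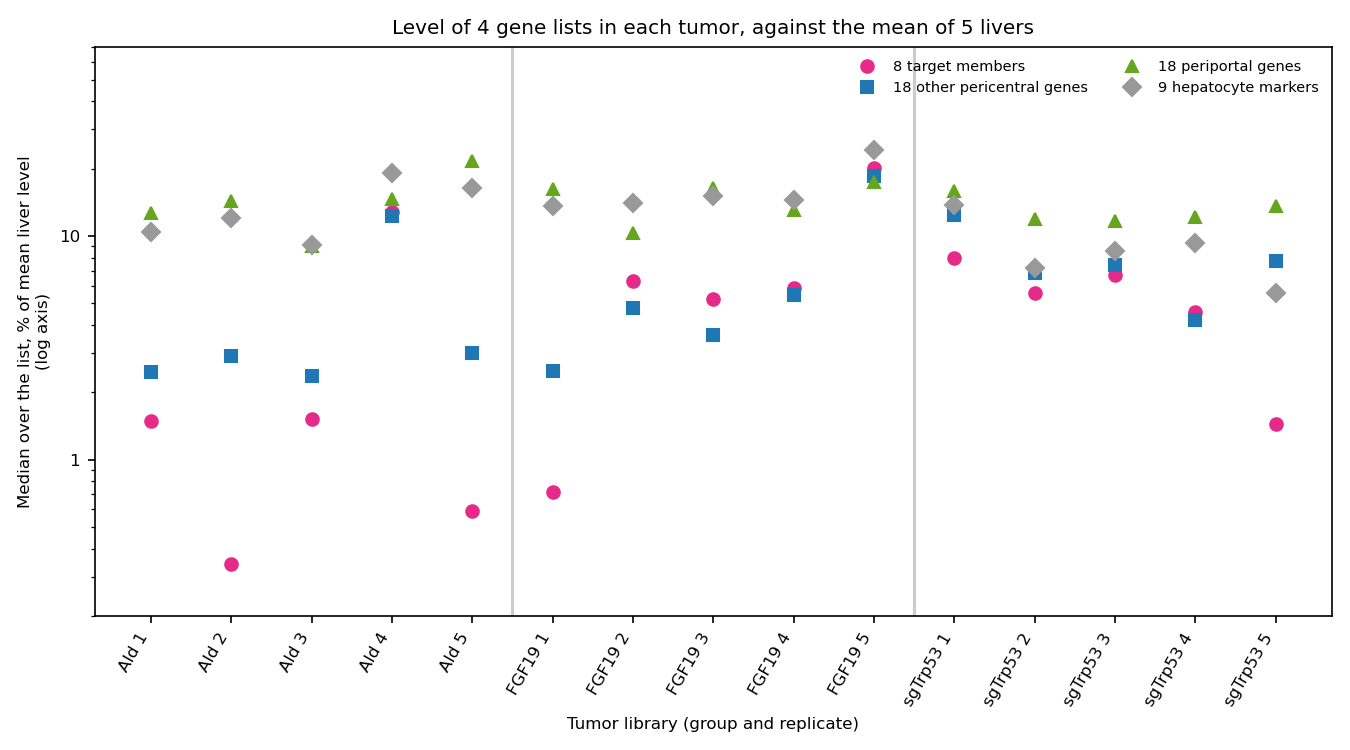
Median level of 4 gene lists in each tumor library, as a percentage of the mean of the 5 livers (log axis). The members shown are the 8 that were lower than liver, Axin2 and Lgr5 included, so that their low medians follow from that choice. The periportal list keeps its 2 genes that rose, and the levels of the 2 lists are not set against each other. Aldafermin + MYC tumor 4 and FGF19 + MYC tumor 5 have the highest member medians (12.8% and 20.2%). The medians of the periportal genes lie between 9.06% and 21.7% in all 15 tumors.

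The zonation of the liver gives the setting of these genes. Of 18 further pericentral genes, such as Cyp2e1 and Cyp1a2, which oxidise drugs and other foreign compounds, all 18 were lower than in liver in each tumor group, with median log2 fold changes of -4.61 in Aldafermin + MYC, -3.84 in FGF19 + MYC and -3.71 in sgTrp53 + MYC tumors. Cyp1a2 fell from 801 CPM to 12.2 CPM in Aldafermin + MYC tumors (log2 fold change -6.04 ± 1.43, SE) and to 6.08 CPM in sgTrp53 + MYC tumors (-7.04 ± 1.50). In FGF19 + MYC tumors the lowest values were those of Slco1b2, a bile acid and drug uptake transporter (-4.98 ± 0.81), and Rgn (-4.77 ± 0.63). Of 18 periportal genes, which lie at the opposite end of the lobule, 16 were lower and 2 higher in each group, with medians of -2.81, -2.75 and -2.83. The 2 that rose were Aldh1b1 and Gldc, the latter a subunit of the mitochondrial glycine cleavage system, at log2 fold changes of 1.69 and 1.34 in Aldafermin + MYC, 1.65 and 1.43 in FGF19 + MYC and 2.16 and 0.68 in sgTrp53 + MYC tumors. Hsd17b6 (-6.25, -5.85 and -7.76) and Pck1, the gluconeogenic enzyme (-7.36 in sgTrp53 + MYC tumors), were among the periportal genes that fell most. Genes of both ends of the lobule were thus lower, and the difference between the lists was not tested.

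Set against sgTrp53 + MYC tumors, the pooled tumors had 2 pericentral genes lower (11.1% of the 18, beside 12.1% of all genes) and none higher (beside 11.6%). Aldh1a1, a retinal dehydrogenase, had a log2 fold change of -1.50 ± 0.38 (SE) and Cldn2, a tight junction claudin, -1.60 ± 0.44. Of the periportal genes, 3 were higher and 3 lower (16.7% each way), among them Gldc (0.70 ± 0.21), Sds, which breaks down serine (1.28 ± 0.40), Cps1, the entry enzyme of the urea cycle (-1.05 ± 0.20), and Etnppl (-1.56 ± 0.52). Without the 2 tumors that stood apart, 11 of the 36 zonation genes were lower and 2 higher, against 5 lower and 3 higher with all libraries. That choice was made after the data were seen. Aldafermin + MYC tumor 4 and FGF19 + MYC tumor 5 had the highest pericentral sums (1903 and 2679 CPM, the other tumors 1746 CPM or less). Leaving them out had to lower the pooled pericentral level, so this change in counts is a description.

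Of 93 further Wnt pathway genes, 58 passed the filter on low counts and 35 did not. In Aldafermin + MYC tumors 11 of the 58 were higher and 24 lower than in liver, in FGF19 + MYC tumors 13 and 23, and in sgTrp53 + MYC tumors 10 and 24. The higher share was 19.0%, 22.4% and 17.2%, beside 38.4%, 36.9% and 36.9% of all genes tested. The lower share was 41.4%, 39.7% and 41.4%, beside 31.9%, 32.9% and 33.0% of all genes. Wnt2, Rspo3 and Sox9 passed only through the livers, and without them 21, 21 and 22 of 55 were lower in the 3 tumor groups. Fzd9 and Sfrp4, at 0.216 and 0.0633 CPM in liver, were tested only because of their tumor levels and are among the genes called higher. Further genes of this kind were not counted. With library totals in place of TMM, these splits turned to 30 higher and 12 lower, 28 and 10, and 30 and 12, while the share of calls that were higher over all genes went from near even to between 77.3% and 78.2%, so that directions in this list hold only relative to the TMM scale.

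**Figure D5:**
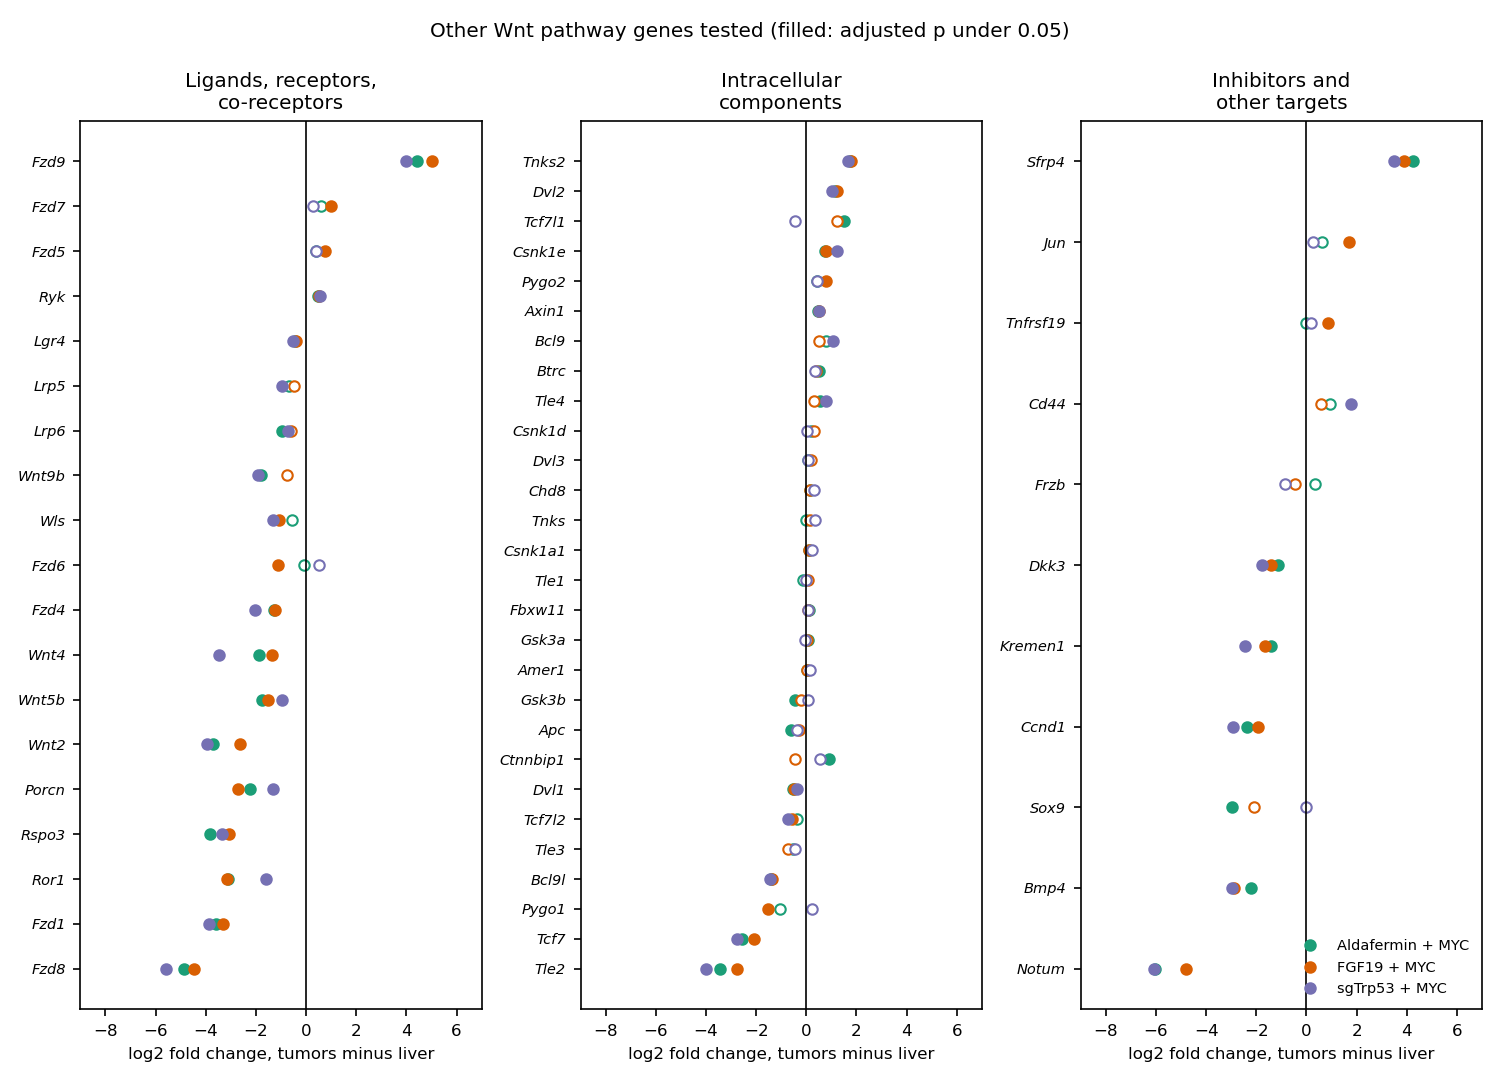
Log2 fold change against liver of the 58 further Wnt pathway genes tested, in 3 role classes, with 1 point per tumor group and filled points for an adjusted p under 0.05. Ligands, receptors and co-receptors lie mostly left of 0, from -5.60 (Fzd8) to 5.02 (Fzd9), and intracellular components mostly near 0. Wnt2, Rspo3 and Sox9 were tested only because of their liver levels, and Fzd9 and Sfrp4 only because of their tumor levels.

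Among ligands, receptors and co-receptors, 12, 12 and 14 of 19 were lower (63.2%, 63.2% and 73.7%) and 2, 4 and 2 higher (10.5%, 21.1% and 10.5%) in Aldafermin + MYC, FGF19 + MYC and sgTrp53 + MYC tumors. Wnt2 and Rspo3 passed the filter only through the livers, so that they had to differ and their values below are a description. Without these 2 genes, 10, 10 and 12 of 17 were lower. The Frizzled receptor Fzd8 fell from 33.0 CPM in liver to 1.13, 1.45 and 0.677 CPM (log2 fold changes -4.88 ± 0.82, -4.49 ± 0.80 and -5.60 ± 0.84, SE). Fzd1 went from 19.3 CPM to 1.61, 1.94 and 1.32 CPM (a fall of 3.31 ± 0.49 in FGF19 + MYC tumors). Rspo3, the R-spondin of central vein endothelium, was at 6.24 CPM in liver and at 0.453, 0.73 and 0.608 CPM in the 3 tumor groups (-3.82 ± 0.73 in Aldafermin + MYC tumors). Wnt2, a ligand of the same endothelium, went from 4.70 CPM to 0.383, 0.736 and 0.298 CPM (-3.97 ± 1.00 in sgTrp53 + MYC tumors). Fzd9 went the other way, from 0.216 CPM in liver to 4.68, 7.08 and 3.46 CPM (4.43 ± 0.64, 5.02 ± 0.65 and 3.99 ± 0.63). With so low a liver level Fzd9 was tested only because of its tumor levels, so that its rise is a description. Fzd7 rose by 0.98 ± 0.28 in FGF19 + MYC tumors, and the Wnt co-receptor Ryk by 0.48 ± 0.12 in Aldafermin + MYC and 0.56 ± 0.12 in sgTrp53 + MYC tumors. Mean Ryk levels were 63.49 CPM in liver and 88.47, 90.55 and 93.44 CPM in Aldafermin + MYC, FGF19 + MYC and sgTrp53 + MYC tumors. The 8 endothelial markers summed to 250 to 406 CPM in liver and 60.1 to 209 CPM in tumors, with 5, 4 and 6 of 8 lower, and their part in the levels of Wnt2 and Rspo3 was not tested.

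Among 28 intracellular components, 8, 6 and 6 were higher (28.6%, 21.4% and 21.4%) and 6, 6 and 5 lower (21.4%, 21.4% and 17.9%) than in liver. Both shares are below those over all genes in each group. Tnks2, a tankyrase that marks Axin for destruction, rose from 77.1 CPM to 256, 269 and 248 CPM (log2 fold changes 1.73 ± 0.16, 1.80 ± 0.17 and 1.68 ± 0.16, SE). Dvl2, a Dishevelled protein that relays the signal from Frizzled, went from 8.13 CPM to 17.75, 19.0 and 16.5 CPM (1.23 ± 0.23 in FGF19 + MYC tumors). The casein kinase Csnk1e went from 11.2 CPM to 18.6, 19.6 and 26.0 CPM (1.21 ± 0.20 in sgTrp53 + MYC tumors). Some nuclear factors of the pathway were among those that fell. Tcf7 went from 14.0 CPM to 2.34, 3.26 and 2.06 CPM (-2.58 ± 0.45, -2.10 ± 0.45 and -2.76 ± 0.46), and the corepressor Tle2 from 19.1 CPM to 1.78, 2.81 and 1.19 CPM (-3.43 ± 0.41, -2.76 ± 0.40 and -4.00 ± 0.42). Tcf7l1, a mainly repressive TCF, was higher in Aldafermin + MYC tumors than in liver (1.52 ± 0.57) and higher in the pooled tumors than in sgTrp53 + MYC tumors (1.83 ± 0.53).

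Among 11 inhibitors and other targets, 1, 3 and 2 were higher (9.09%, 27.3% and 18.2%) and 6, 5 and 5 lower (54.5%, 45.5% and 45.5%) than in liver. Without Sox9, which passed the filter only through the livers, 5 of 10 were lower in each group. Notum, a secreted enzyme that inactivates Wnt ligands and is itself a target, fell from 89.5 CPM in liver to 1.44, 3.21 and 1.34 CPM (log2 fold changes -6.04 ± 1.29, -4.78 ± 1.21 and -6.06 ± 1.28, SE). Bmp4 fell by 2.89 ± 0.57 in FGF19 + MYC and by 2.97 ± 0.56 in sgTrp53 + MYC tumors. Sfrp4, a secreted Wnt antagonist, was at 0.0633 CPM in liver and at 1.04, 0.814 and 0.619 CPM in tumors (4.26 ± 1.11, 3.90 ± 1.12 and 3.50 ± 1.11). With so low a liver level it was tested only because of its tumor levels, so that it had to differ and its values are a description. Jun rose by 1.69 ± 0.34 in FGF19 + MYC tumors and Cd44, a cell surface receptor, by 1.77 ± 0.66 in sgTrp53 + MYC tumors. Sox9, a progenitor and bile duct factor, was lower by 2.96 ± 1.04 in Aldafermin + MYC tumors, which is a description since it was tested only because of its liver levels.

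Between Aldafermin + MYC and FGF19 + MYC tumors, 0 of the 58 Wnt pathway genes passed the edgeR quasi-likelihood test. Ctnnbip1, an inhibitor of the binding of beta-catenin to TCF, was called higher in Aldafermin + MYC tumors by DESeq2 (1.33, adjusted p = 0.000457) and by edgeR's likelihood ratio test (1.37, adjusted p = 0.000647), and by the quasi-likelihood test without Aldafermin + MYC replicate 2 or 4 or sgTrp53 + MYC replicate 1 (1.37 to 1.50), and it is named here because its call depends on the tool. In the comparison of the pooled with the sgTrp53 + MYC tumors, 5 were called in each direction, or 8.62% of the 58 each way, which is below the 11.6% higher and 12.1% lower over all genes. Higher in the pooled tumors were Wnt4 (log2 fold change 1.88 ± 0.50, SE), Fzd4 (0.77 ± 0.27), Tcf7l1, Kremen1, a receptor of Dickkopf inhibitors (0.92 ± 0.22), and Jun (0.87 ± 0.29). The mean of Jun was 86.7 CPM in FGF19 + MYC, but 40.8 CPM in Aldafermin + MYC and 32.6 CPM in sgTrp53 + MYC tumors. Lower were Porcn, which acylates Wnt ligands (-1.14 ± 0.33), Ror1 (-1.55 ± 0.54), Pygo1 (-1.51 ± 0.41) and Sox9 (-2.51 ± 0.80), among others. Sox9 is also on the list of bile duct markers, of which 4 of 6 were lower in the pooled tumors. The summed level of these markers was 17.4 to 105 CPM there, 795 CPM in sgTrp53 + MYC tumor 2 and 23.6 to 49.5 CPM in the other 4, and its part in the Sox9 difference was not tested. Sox9 itself ran from 0.300 to 18.3 CPM in sgTrp53 + MYC tumors around a mean of 4.23 CPM, so that the highest tumor set most of that mean. It was at 0 to 0.961 CPM in Aldafermin + MYC and 0.167 to 2.74 CPM in FGF19 + MYC tumors.

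At the adherens junction, the other place of beta-catenin, its partner E-cadherin (Cdh1) rose in every tumor group. Cdh1 was at 61.1 CPM in liver and at 287, 259 and 176 CPM in Aldafermin + MYC, FGF19 + MYC and sgTrp53 + MYC tumors (log2 fold changes 2.23 ± 0.29, 2.09 ± 0.28 and 1.53 ± 0.28, SE). Plakoglobin (Jup), the close relative of beta-catenin, fell by 0.85 ± 0.31, 0.87 ± 0.32 and 1.65 ± 0.32, and was higher in the pooled tumors than in sgTrp53 + MYC tumors (0.79 ± 0.28). Alpha-catenin (Ctnna1) fell by 0.57 ± 0.22 in Aldafermin + MYC and 0.53 ± 0.22 in FGF19 + MYC tumors, and p120 catenin (Ctnnd1) by 0.62 ± 0.25 in sgTrp53 + MYC tumors. Of the 6 tested genes of this list, 3, 3 and 2 were lower and 1 was higher in each group, and these falls of less than 1 log2 unit, Jup in sgTrp53 + MYC tumors aside, are of the size by which library totals move the median of all genes.

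The genes whose pattern over the 20 libraries was nearest to Glul, Axin2 and Lgr5 were sought among the tested genes whose mean reached 10 CPM, by the root mean square difference of centered log2 CPM. For Glul, which had an SD of 1.30 over the libraries on that scale, they were C1s1, a complement protease (0.29), Pacsin3 (0.36) and the aldehyde dehydrogenase Aldh3a2 (0.36). C1s1 was at 742 ± 121 CPM (SD, n = 5) in liver and at 113 ± 32.6, 126 ± 37.1 and 85.9 ± 36.4 CPM in Aldafermin + MYC, FGF19 + MYC and sgTrp53 + MYC tumors. For Axin2 (SD 2.97) they were Pdk2, a kinase that restrains pyruvate dehydrogenase (0.89), Reps2 (0.90) and Ugt2a3, a glucuronosyltransferase (0.93). For Lgr5 (SD 2.75) they were the secreted fetuin Fetub (0.88), Mycl (0.89) and the anion exchanger Slc26a1 (0.91). All 9 had a lower mean in each tumor group than in liver, which follows from how they were picked. The likeness is a description over libraries that share these groups.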

How the data were processed

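Polyadenylated RNA of 20 samples was sequenced from stranded TruSeq libraries. The authors aligned reads to mm39 with HISAT2 and counted them per RefSeq gene with htseq-count, so the deposited values are raw counts in 2 tables of 50559 genes (base calls by bcl2fastq 2.20.0.422 per the labels, and the HISAT2 version and the strand setting were not given in the sources used here). The 5 summary lines of each table (33.7% to 56.2% of all lines' counts per library) were left out. Groups came from the sample titles. The 14333 genes that reached 1 CPM in 5 or more libraries were fitted together by edgeR 4.0.16 (R 4.3.3) with TMM scaling and the quasi-likelihood test, called at an adjusted p of 0.05 and tested on simulated data first. SE and 95% confidence intervals come from that fit. The members, gene lists and tests were chosen with earlier results of these data known. Named list genes are the up to 2 highest and 2 lowest log2 fold changes called per list and comparison. Exon lengths and GRCm39 positions came from GENCODE M39 and promoters from RefSeq. Alternatives were DESeq2 1.42.0, edgeR's likelihood ratio test, other scalings and filters, fits on fewer groups or libraries, and a replicate block. No pair of libraries agreed within sampling noise (lowest chi-square per degree of freedom 13.9). Replicate numbers did not pair samples: they name different mice, and deviations of same-numbered libraries correlated at -0.333 to 0.333, above 0.1 in 6 of 30 pairs.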

Additional observations from a re-analysis of the deposited data

Results flagged for a closer look

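In 11 of the 40 sets of 5 libraries checked (10 members in 4 groups), 1 library stood apart from the others by Dixon's test (critical value 0.71). Chance would give about 2 if the sets were independent and normally distributed. The members share the same libraries and many values lie near 0, so that these counts cannot be set against each other. Aldafermin + MYC tumor 4 was high for Axin2 (1.692 CPM, the others 0 to 0.0534), Tbx3 (3.884, the others 0 to 0.774), Glul (475.6, the others 178.5 to 259.4), Rhbg (2.577, the others 0.112 to 0.374) and Slc1a2 (28.46, the others 0.124 to 0.292). FGF19 + MYC tumor 5 was high for Axin2 (1.828 CPM, the others 0.0558 to 0.510), Lgr5 (1.863, the others 0 to 0.470), Rhbg (6.292, the others 0.0558 to 1.53) and Slc1a2 (31.84, the others 0.726 to 7.57). In the sgTrp53 + MYC group, tumor 5 was low for Tbx3 (0.7827 CPM, the others 3.66 to 4.47) and tumor 1 was high for Rhbg (2.537, the others 0.0817 to 0.761). No liver stood apart in this way for any member.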

How the results depend on the processing

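Of the 24 lower calls against liver (8 genes in 3 groups, Axin2 and Lgr5 included), recomputed in 696 alternative fits, 689 kept the call, 7 lost it, all of them Rhbg in FGF19 + MYC tumors, and 0 changed direction. The kept calls of Axin2 and Lgr5 are no support, since these genes were tested only because of their liver levels and had to differ. Library totals in place of TMM moved the share of higher calls against liver over all genes from 54.6%, 52.9% and 52.8% to 78.2%, 77.3% and 77.9%. Between Aldafermin + MYC and FGF19 + MYC tumors the quasi-likelihood test called 0 genes, DESeq2 96, the likelihood ratio test 59 and RLE size factors 2, and the Wnt pathway count was 0, with 1 by DESeq2 and 1 by the likelihood ratio test (0 to 1 with a library left out).

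Against sgTrp53 + MYC tumors, the pooled tumors had 0 members called, 1 by DESeq2, 2 without Aldafermin + MYC replicate 4 and FGF19 + MYC replicate 5 (chosen after seeing the data), and 0 to 1 with a library left out. Those 2 tumors were the highest for Axin2 and for the sum of the pericentral genes, so the counts without them are a description. The Wnt pathway count was 10, with 3 for Aldafermin + MYC tumors alone and 6 (without sgTrp53 + MYC replicate 2) to 11 when single libraries were dropped. The zonation count was 8, with 5 from only the groups compared, 13 without those 2 tumors, 4 for each hormone group alone and 3 (without sgTrp53 + MYC replicate 2) to 12 (without Aldafermin + MYC replicate 4) when single libraries were dropped.

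Changes of direction were in values not called with all libraries. For Aldafermin + MYC minus FGF19 + MYC, Ctnnb1 (0.02) became -0.00700 by DESeq2, -0.00689 with RLE and -0.012 from only the groups compared. With a library left out, it ran from -0.065 to 0.061, Axin2 from -5.19 to 0.22, Lgr5 from -2.48 to 0.45, Glul from -0.30 to 0.27 and Slc1a2 from -5.59 to 0.42. For the pooled tumors minus sgTrp53 + MYC, FGF19 + MYC alone gave 0.065 for Axin2, 0.40 for Rnf43 and 0.14 for Tbx3, and Aldafermin + MYC alone gave -0.35 for Nkd1 and -0.20 for Rhbg. Without those 2 tumors Nkd1 was -0.69, Lgr5 -0.91, Rhbg -0.79 and Slc1a2 -1.87. Nkd1 was also -0.00927 by DESeq2, -0.013 with RLE and -0.10 without a filter. With a library left out, Nkd1 ran from -0.35 to 0.23, Lgr5 from -0.22 to 1.04, Rhbg from -0.21 to 1.78 and Slc1a2 from -1.27 to 1.79. Against liver, sgTrp53 + MYC tumors ran from -0.0017 to 0.21 for Ctnnb1 and from -0.063 to 0.30 for Znrf3. The cause was not tested.

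A replicate block left the member counts at 0, 0, 8, 9 and 8 and moved Nkd1 to -0.18 and Slc1a2 to -0.091 in the pooled comparison. Searching for CTTTGAT alone left 1 member promoter with a match. Lgr5 and Axin2 in tumors rest on few reads, which limits differences among tumors.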
